A study of Mus musculus with 8 samples.

Results

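Platelets carry many of their secreted proteins in alpha granules, and 10 genes grouped as alpha-granule chemokines and matrix cargo were followed in the platelet transcriptome: the chemokines Pf4 and Ppbp, the proteoglycan Srgn, the matrix and adhesive proteins Thbs1, Mmrn1 and Sparc, the clotting enzyme subunit F13a1, the chaperone Clu, the growth factor Tgfb1 and the membrane receptor Selp. The members were chosen by name, so all rows of the table with these symbols were taken, which gave 10 of the 43548 genes listed. The libraries came from platelet RNA of 8 mice, 4 TNFdARE and 4 of their control littermates, and each genotype was represented by 2 females and 2 males. In TNFdARE mice a deletion removes the AU-rich element of the Tnf transcript, which normally limits the amount of TNF-α made. These animals have chronic inflammation of joints and gut. The line had been backcrossed to C57BL/6J, and its zygosity is not given in the sources used here. All mice were 8 to 12 weeks old, although the submitters' descriptions also mention 3 mice per group and older males. Levels were read as FPKM, fragments scaled to transcript length and library size. This unit was inferred, and the order of levels between genes depends on it.

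Alpha granules are filled in megakaryocytes, the bone marrow cells that shed platelets. Platelets have no nucleus, so their RNA is what the megakaryocyte left in them, and the granule proteins themselves were not measured here. On activation the granules fuse with the plasma membrane, which releases the soluble cargo and brings P-selectin to the surface. Chemokines attract leukocytes, matrix proteins and factor XIII stabilise the clot, and TGF-β1 is stored as a latent complex that has to be activated outside the cell.

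Platelet markers were found in every library, and all 4 taken as defining (Itga2b, Gp1bb, Gp9 and Tubb1) were above 0 in all 8 mice. Their summed level ran from 284 to 389 FPKM in controls and from 225 to 404 FPKM in TNFdARE mice. All 16 platelet and megakaryocyte markers together summed to 826 to 1161 FPKM in controls and 625 to 1026 FPKM in TNFdARE mice, and 13 of them were above 0 in every mouse. Tubb1 was at 24.4 FPKM in TNFdARE 1 and 39.0 FPKM in TNFdARE 4, against 88.2 to 169 FPKM in the other 6 mice, Treml1 and Rasgrp2 were at 0 in TNFdARE 1, and P2ry12 was at 0.0436 FPKM in TNFdARE 4. A single gene, AY036118, took 33.7% to 67.7% of the summed FPKM of a library, the most in TNFdARE 1, ahead of 51.8% in control 2. The libraries of 2 TNFdARE mice stood apart with the fewest genes above 0, 818 in mouse 1 and 1225 in mouse 4, against 1479 to 4917 in the other 6. The same libraries held the most RNA of the erythroid marker list. Its 10 genes in the table, all above 0 in at least 1 library, summed to 6919 FPKM in TNFdARE mouse 1 and 14647 FPKM in mouse 4, against 1107 and 2934 FPKM in mice 2 and 3 and 748 to 2198 FPKM in controls. Neutrophil markers (9 of 14 at 0 in all 8 mice) summed to at most 3.66 FPKM in controls and 10.3 FPKM in TNFdARE mice, and T cell markers (5 of 8 at 0) to at most 1.02 and 0.822 FPKM. Monocyte and macrophage markers (5 of 11 at 0) summed to 30.8 to 53.4 FPKM in controls and 12.0 to 36.1 FPKM in TNFdARE mice, most of it in every mouse from Lyz2 (mean 31.9 FPKM), while Cd14, Ly6c2, Ccr2, Cx3cr1 and Fcgr1 were at 0 in all 8 mice. B cell markers (5 of 9 at 0) summed to 0 to 37.9 and 0.129 to 14.4 FPKM. The part of these other cell types in the member results was not tested. Tnf itself was listed at 0 in all 8 libraries, so the genotype labels could not be checked by its level.

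Pf4 and Ppbp were the most abundant members, and they are neighbours on mouse chromosome 5. In GENCODE M21 on GRCm38, Ppbp occupies chr5:90768518-90770063 and Pf4 chr5:90772435-90773383, both on the plus strand and 2371 bases apart. Both belong to the CXC chemokines, whose first 2 cysteines flank 1 other residue. The coding stretches around that pair are shown because they define the family, with the cysteine codons in capitals, codons 44 and 46 of Pf4 and codons 52 and 54 of Ppbp, read from the GENCODE M21 transcripts 5′ to 3′.
Pf4 coding, codons 36 to 55: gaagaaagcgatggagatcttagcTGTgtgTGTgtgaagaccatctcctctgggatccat
Ppbp coding, codons 44 to 63: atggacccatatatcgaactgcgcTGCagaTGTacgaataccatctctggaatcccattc

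The 250 bases before each start site are also given, from RefSeq on GRCm38.p6, since these adjacent genes had opposite signs in the genotype comparison. Pf4 lies downstream of chr5:90772185-90772434 and Ppbp of chr5:90768268-90768517, both on the plus strand. Capitals mark matches to AGGAAG on either strand (the core of many ETS sites, read as CTTCCT on the opposite strand) and to TATAAA.
Pf4 upstream: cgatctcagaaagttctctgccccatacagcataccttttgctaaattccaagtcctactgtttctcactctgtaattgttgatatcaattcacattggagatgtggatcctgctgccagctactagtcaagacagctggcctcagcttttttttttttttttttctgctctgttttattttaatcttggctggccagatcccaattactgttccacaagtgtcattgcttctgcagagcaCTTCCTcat
Ppbp upstream: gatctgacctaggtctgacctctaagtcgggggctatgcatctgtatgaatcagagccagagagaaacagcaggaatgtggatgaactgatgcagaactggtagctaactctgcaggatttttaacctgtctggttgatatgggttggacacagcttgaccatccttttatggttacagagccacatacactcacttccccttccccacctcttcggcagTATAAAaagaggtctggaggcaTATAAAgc

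The Pf4 window held 1 AGGAAG match on the opposite strand, 9 to 4 bases before the start, and no TATAAA. In the Ppbp window TATAAA occurred 30 to 25 and 8 to 3 bases before the start, and AGGAAG did not occur. Neither window held AGATAA or TGATAA, the letters of a common GATA site. All motifs were searched on both strands and do not share bases with each other in these windows. Of 32851 RefSeq windows of this length, 29.5% held AGGAAG, 12.4% held TATAAA and 16.6% held AGATAA or TGATAA, so such matches are common. Windows were found for 8 of the 10 members. Among the rest, Mmrn1 had TGATAA 34 to 29 bases before its start, Srgn had 1 TATAAA, Tgfb1 and Selp had 1 AGGAAG each, and F13a1 had 2 at its first and 1 at its second start site. A match describes the letters of the window and is not evidence of a bound site.

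By mean FPKM over 8 mice, the order of the members was Pf4 (325), Ppbp (266), Clu (168), Srgn (47.3), Tgfb1 (35.4), Thbs1 (21.0), Mmrn1 (10.8), F13a1 (5.18), Selp (3.76) and Sparc (0.0269). Only 1 step in this order separated the ranges completely, that from Clu to Srgn, which held in 8 of 8 mice. Pf4 exceeded Ppbp in 5 of 8 mice, Srgn exceeded Tgfb1 in 5 and Tgfb1 exceeded Thbs1 in 5, so these neighbours did not differ beyond their spread. The steps from Ppbp to Clu, from Thbs1 to Mmrn1 and from Mmrn1 to F13a1 held in 7 of 8 mice each, and that from F13a1 to Selp in 6. Together the 10 genes summed to between 748 and 1110 FPKM per library, which was 1.80% to 3.46% of the FPKM outside AY036118.

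**Figure D1:**
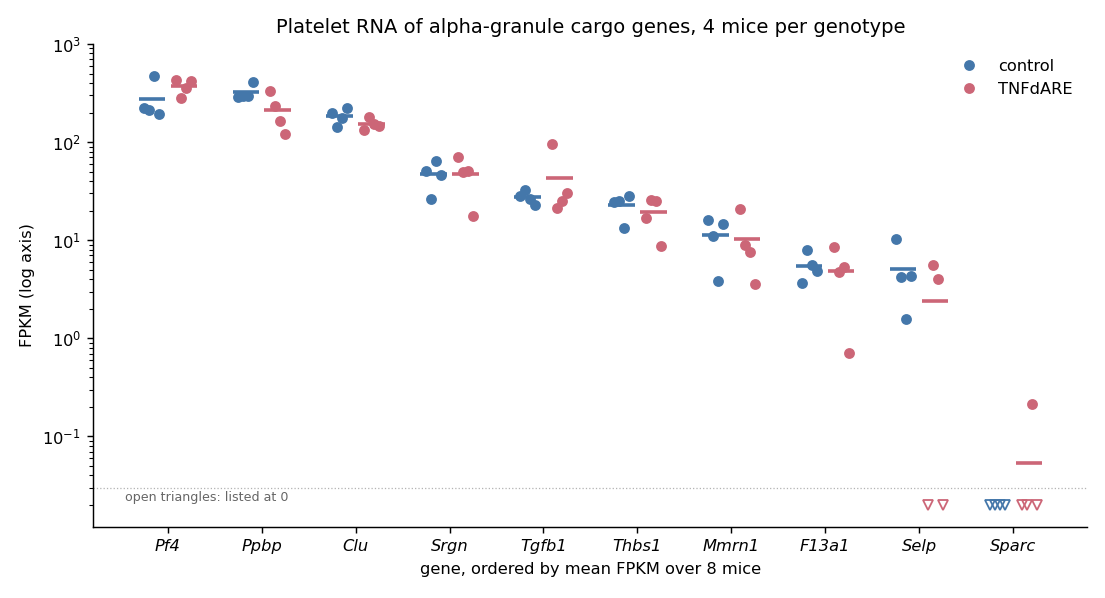
FPKM of each cargo gene in each mouse on a log axis, controls in blue and TNFdARE in red, with horizontal bars at the group means and open triangles for values listed at 0. Pf4, Ppbp and Clu sit above 100 FPKM in all 8 mice, the other genes are lower, the groups overlap for every gene, and Sparc is above 0 in a single TNFdARE mouse.

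Genotypes were compared for 9 of the 10 members, since Sparc did not reach a mean of 1 FPKM. None of the 9 had an unadjusted p under 0.05 in limma, where 4.5% of the 1534 genes tested did (69 genes), and none had groups that did not overlap, where 3.32% of all tested genes did (51 genes). No gene of the whole table passed at an adjusted p under 0.05 (0% of 1534, smallest adjusted p 0.86 in limma). In a simulation, 64% of 200 genes changed by 3 on the log2 scale were recovered. Smaller changes, such as those estimated for the members, were not simulated, so how often they would be found is not known. Point estimates were higher in TNFdARE for 2 members, Pf4 and Tgfb1, and lower for 7, with a median of -0.25 on the log2(FPKM + 1) scale, beside 568 higher and 966 lower and a median of -0.30 over all tested genes. On this scale the change of low genes is understated. In bulk RNA, fewer platelets of a kind and less RNA per platelet cannot be told apart.

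Platelet factor 4, encoded by Pf4, binds heparin and other polyanions and is a standard marker of the megakaryocyte lineage. Control mice had 223, 213, 472 and 195 FPKM, and TNFdARE mice had 434, 283, 357 and 423 FPKM. Controls 1, 2 and 4 lay below every TNFdARE mouse, and control 3 lay above them all, so the groups overlapped only through that mouse. The 5 mice with the highest Pf4, control 3 and the 4 TNFdARE mice, were also the 5 with the highest erythroid sums, with 2198 FPKM in control 3 against 748 to 856 FPKM in the other controls. The mean was 276 ± 131 FPKM in controls and 374 ± 69.5 FPKM in TNFdARE mice (SD, n = 4), a difference of 0.52 on the log2 scale (SE 0.37, 95% interval -0.29 to 1.33). This did not pass limma (unadjusted p = 0.19, adjusted p = 0.86), and the two-sided exact permutation test gave p = 0.17, where 4 against 4 mice cannot go below 0.029. Without control 3 the difference was 0.81, which passed the unadjusted but not the adjusted threshold in limma (adjusted p = 0.83). Leaving out the 2 TNFdARE libraries with the fewest genes, a check added after the data were seen, gave 0.31.

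Ppbp encodes pro-platelet basic protein, which is cleaved to the neutrophil-attracting chemokine CXCL7. Its levels were 285, 294, 296 and 408 FPKM in controls and 330, 235, 163 and 120 FPKM in TNFdARE mice. TNFdARE 2, 3 and 4 lay below the lowest control, and TNFdARE 1 lay within the control range. The means were 321 ± 58.1 and 212 ± 91.8 FPKM (SD, n = 4). On the log2 scale Ppbp differed by -0.68 in TNFdARE (SE 0.39, 95% interval -1.52 to 0.15), which did not pass limma (unadjusted p = 0.10, adjusted p = 0.86) or the exact permutation test (p = 0.11). Without TNFdARE 1 the estimate was -0.93 (limma adjusted p = 0.94), and without TNFdARE 1 and 4 it was -0.69 (limma adjusted p = 0.998), both past the unadjusted threshold only. Without TNFdARE 4 the estimate was -0.44, and it passed neither threshold. Among all mice TNFdARE 4 had the lowest Ppbp and the highest erythroid sum, while TNFdARE 1, with the next highest erythroid sum, had the second highest Ppbp.

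Because both chemokines are read in the same library, the ratio of their FPKM does not depend on how a library was scaled. The log2 ratios tested had 1 added to each FPKM, so they depend on scaling to some degree (Ppbp to Pf4 -1.20 with it, -1.21 without it). Ppbp exceeded Pf4 in 3 of the 4 controls and in 0 of the 4 TNFdARE mice. The ratio of Ppbp to Pf4 was 1.28, 1.38, 0.628 and 2.09 in controls and 0.761, 0.830, 0.456 and 0.284 in TNFdARE mice. All TNFdARE ratios were below the control median, but only those of mice 3 and 4 were below the lowest control, which was control 3. The log2 ratio differed by -1.20 (SE 0.51), with a two-sided exact permutation p of 0.086, or 0.26 after Benjamini-Hochberg adjustment over the 3 ratios examined. It was -1.0 without TNFdARE 1 and 4. Srgn to Pf4 (-0.60, SE 0.54, exact permutation p = 0.37) and Thbs1 to Pf4 (-0.82, SE 0.69, exact permutation p = 0.26) had the same sign, both with an adjusted p of 0.37, and all 3 ratios share Pf4 as denominator. Srgn to Pf4 was -0.13 without TNFdARE 4 and -0.14 without TNFdARE 1 and 4. Thbs1 to Pf4 was -0.44 without TNFdARE 4, -0.10 without TNFdARE 1 and 4, and -1.33 without control 3.

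**Figure D2:**
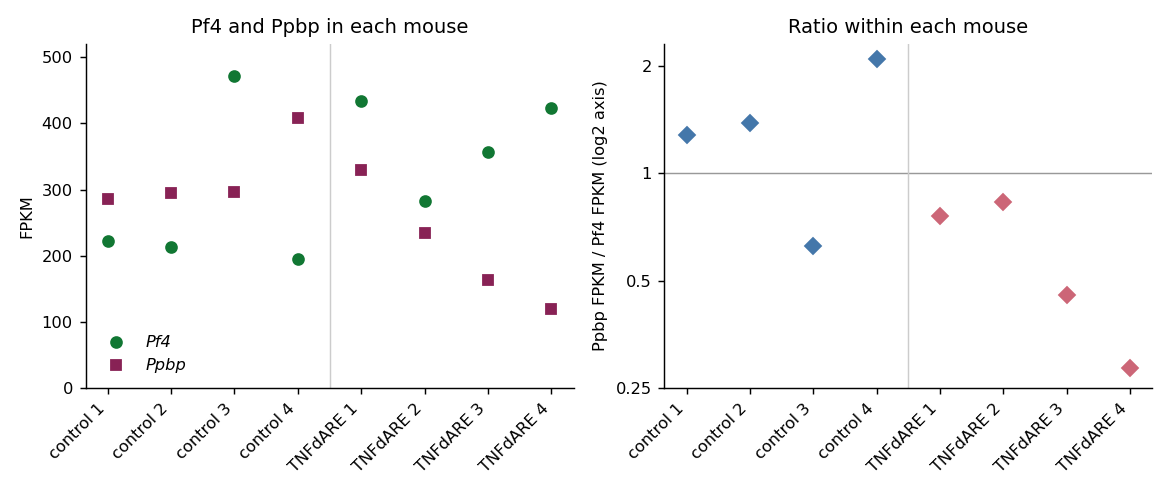
Left, FPKM of Pf4 (circles) and Ppbp (squares) in each mouse. Right, the Ppbp to Pf4 ratio on a log2 axis, controls in blue and TNFdARE in red, with a line at 1, where 3 controls lie above the line and the 4 TNFdARE mice and control 3 lie below it.

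Serglycin, the product of Srgn, is the proteoglycan core whose sulfated chains retain positively charged cargo such as platelet factor 4 in granules, and leukocytes also express it. Srgn (chr10:62493833-62527451, minus strand) stood at 51.2, 26.1, 64.9 and 46.7 FPKM in controls and 71.2, 50.1, 50.9 and 17.7 FPKM in TNFdARE mice. Both the highest and the lowest mouse were TNFdARE, mice 1 and 4. The difference was -0.08 (SE 0.53, 95% interval -1.23 to 1.07, limma adjusted p = 0.99), and it was 0.33 without TNFdARE 4 and 0.17 without TNFdARE 1 and 4.

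Thrombospondin-1 is a large adhesive glycoprotein that bridges platelets through CD47 and CD36 and can activate latent TGF-β. Thbs1 (chr2:118111876-118127133, plus strand) was at 24.6, 25.3, 13.3 and 28.0 FPKM in controls and 17.0, 25.6, 25.3 and 8.75 FPKM in TNFdARE mice. The mice lay close together except for control 3, TNFdARE 1 and TNFdARE 4, which were lower. The log2 difference was -0.30 (SE 0.54, 95% interval -1.46 to 0.86, limma adjusted p = 0.90), and without TNFdARE 4 it was 0.017.

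Multimerin 1, encoded by Mmrn1 (chr6:60924976-60989378, plus strand), is a very large multimeric protein that binds coagulation factor V in the granule. Mmrn1 was at 16.1, 11.1, 3.88 and 14.6 FPKM in controls and at 20.7, 8.87, 7.56 and 3.59 FPKM in TNFdARE mice. Control 3 and TNFdARE 4 were the lowest, and TNFdARE 1 was the highest. Its difference was -0.23 (SE 0.66, 95% interval -1.65 to 1.20, limma adjusted p = 0.95), or 0.13 without TNFdARE 4.

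F13a1 encodes the catalytic A subunit of factor XIII, the transglutaminase that cross-links fibrin, which macrophages also make and which platelets hold largely in the cytosol. F13a1 (chr13:36867178-37050244, minus strand) was at 3.70, 7.88, 5.58 and 4.83 FPKM in controls and 8.57, 4.76, 5.38 and 0.711 FPKM in TNFdARE mice. TNFdARE 4 was far below the other 7, and TNFdARE 1 was again the highest. The difference of -0.35 (SE 0.68, 95% interval -1.82 to 1.11, limma adjusted p = 0.90) became 0.16 without TNFdARE 4.

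Sparc, osteonectin, is a collagen-binding matrix protein known from platelet alpha granules. Here Sparc (chr11:55394500-55423183, minus strand) was listed at 0 in 7 libraries and at 0.215 FPKM in TNFdARE 3, the library with the most genes above 0. Read depth is unknown and a listed 0 can be a failed estimate, so its RNA was not detectable in 7 libraries rather than shown to be absent.

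Clusterin, a secreted chaperone, was the steadiest member. Clu (chr14:65968483-65981547, plus strand) ran through 196, 143, 175 and 220 FPKM in controls and 133, 182, 152 and 144 FPKM in TNFdARE mice. The highest mouse was 1.66 times the lowest, against 2.42 times for Pf4 and 3.39 times for Ppbp. Controls 1 and 4 lay above every TNFdARE mouse, and the groups otherwise interleaved. The means were 183 ± 33.0 and 153 ± 21.1 FPKM (SD, n = 4), and the log2 difference was -0.25 (SE 0.35, 95% interval -1.01 to 0.50, limma adjusted p = 0.88, exact permutation p = 0.20).

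Tgfb1 encodes TGF-β1, of which platelets are a main circulating store. Tgfb1 (chr7:25687002-25705077, plus strand) was at 28.5, 32.6, 26.1 and 22.8 FPKM in controls and 96.3, 21.4, 25.1 and 30.4 FPKM in TNFdARE mice. The other 7 mice lay within 21.4 to 32.6 FPKM, and TNFdARE 1 lay far above all of them. The log2 difference was 0.37 (SE 0.54, 95% interval -0.80 to 1.54, limma adjusted p = 0.89), and without TNFdARE 1 it was -0.099.

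Selp encodes P-selectin, the granule membrane receptor that binds PSGL-1 on leukocytes once it reaches the surface. Selp (chr1:164115264-164150026, plus strand) was at 10.3, 4.20, 1.56 and 4.35 FPKM in controls and at 0, 5.62, 3.99 and 0 FPKM in TNFdARE mice. The zeros were TNFdARE 1 and 4, the libraries with the fewest genes above 0. The difference was -1.15 (SE 0.83, 95% interval -2.95 to 0.64, limma adjusted p = 0.86), and it was 0.11 without those 2 libraries. Its size also moved with the pseudocount, to -2.62 at 0.1 and -0.46 at 5.

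The Selp level is uncertain for a reason in the annotation. Gm16548, a lincRNA gene on the opposite strand (chr1:164148591-164152217), shares 438 of its 1226 exonic bases with Selp exons, none of them coding, and 262 with exons of the next gene, F5, 158 of them coding. Gm16548 was listed at 150, 120, 24.7 and 126 FPKM in controls and at 103, 133, 144 and 1.92 FPKM in TNFdARE mice, above Selp in every mouse. Whether the authors counted by strand is not given in the sources used here, and without strand, reads within the shared bases cannot be told apart. Gm16548, Selp and F5 were all low in control 3 and TNFdARE 4, whereas TNFdARE 1 had Selp at 0 beside high Gm16548 and F5. A second opposite-strand gene, Gm16587, shares 188 identical bases with Selp and was at 0 to 5.04 FPKM. No other member had a further gene matching a transcript at 95% identity or more over at least 150 bases, although Thbs1 and F13a1 also overlap opposite-strand genes, Gm29233 (listed at 0 in all 8 mice) for Thbs1, and Gm49144 and Gm30489 for F13a1.

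**Figure D3:**
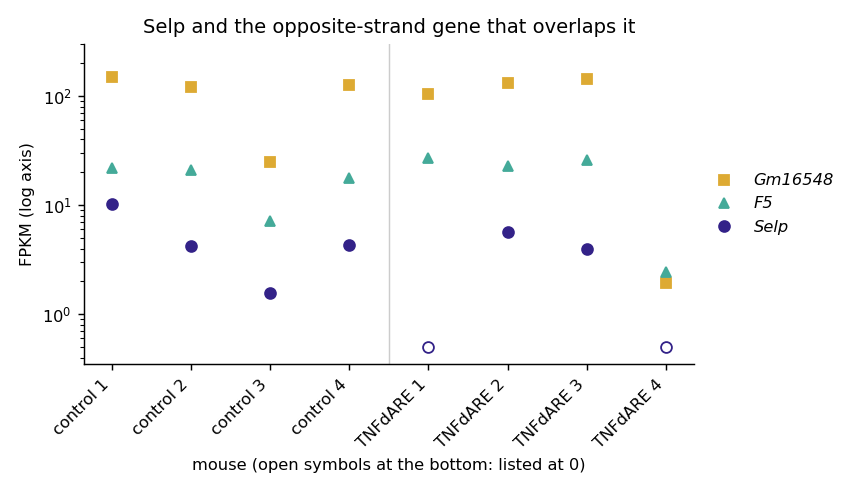
FPKM on a log axis of Selp (circles), the opposite-strand gene Gm16548 (squares) and the next gene F5 (triangles) in each mouse, with open symbols for values listed at 0. Gm16548 lies above Selp in each mouse, and all 3 genes are low in control 3 and TNFdARE 4.

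The genotype estimates with their intervals all included 0. Pf4, Ppbp and Clu kept their sign under every alternative run, although Clu was close to 0 with quantile normalization (-0.013). Each of the other 6 tested members changed sign under at least 1 alternative. In this balanced design, other filters, limma without trend, a sex term or a replicate block cannot move an estimate. The sign could therefore not change under those. Sex was also examined, because each group held 2 females and 2 males. In limma, no member had an unadjusted p under 0.05 for a genotype difference that differed between males and females, where 3.52% of all tested genes did (54 of 1534), and the smallest member p was that of Mmrn1 (male minus female 2.11, SE 1.38, limma adjusted p = 0.92).

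**Figure D4:**
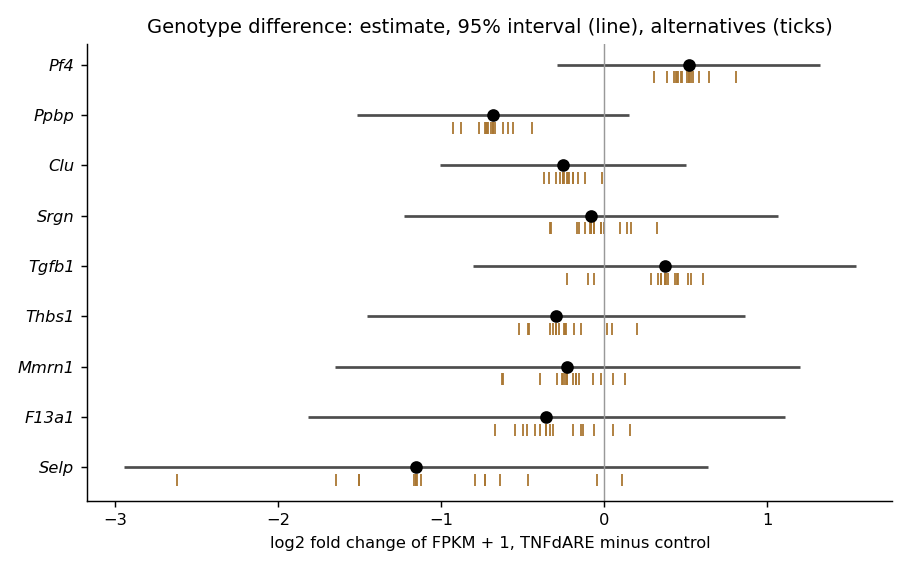
Log2 fold change of FPKM + 1, TNFdARE minus control, for the 9 tested members, with the limma estimate (points), its 95% interval (lines) and the estimates under the alternatives (ticks below). Every interval crosses 0, Pf4 lies to the right and Ppbp to the left under every alternative, and the ticks of Srgn, Tgfb1, Thbs1, Mmrn1, F13a1 and Selp fall on both sides.

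Single mice set much of the spread. TNFdARE 4 was the lowest of the 8 mice for 6 of the 9 tested members (Ppbp, Srgn, Thbs1, Mmrn1, F13a1 and, tied with TNFdARE 1, Selp), yet its Pf4 was the third highest. That library, with 1225 genes above 0 and the highest erythroid sum, was the lowest or tied for it for 49.9% of all 1534 tested genes. TNFdARE 1 was the highest for 4 (Srgn, Tgfb1, Mmrn1 and F13a1) and the lowest for 2 (Clu and Selp), beside 16.3% and 64.3% of all tested genes, ties included. The shares for lowest values include genes tied at 0. Among the tested members only Selp had a value of 0, so these shares are not a like background for the others. Control 2 and TNFdARE 2, 3 and 4 were the highest for none, beside 13.4%, 7.43%, 3.65% and 14.5% of all tested genes. The spread within groups, as the SD of log2(FPKM + 1), was 0.46 for Pf4, 0.48 for Ppbp and 0.23 for Clu, beside a median of 0.61 over the 47 genes with a mean of at least 100 FPKM. Members of 10 to 100 FPKM had 0.58 (Thbs1) to 0.88 (Mmrn1), beside a median of 1.07 over 294 genes, and F13a1 (0.80) and Selp (1.21) stood beside 1.15 over the 1193 genes of 1 to 10 FPKM.

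**Figure D5:**
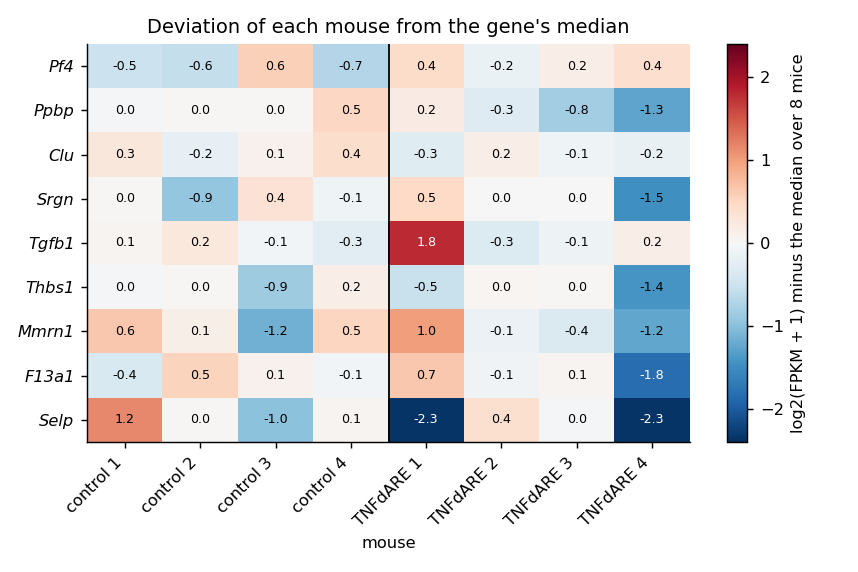
Deviation of each mouse from the median of the gene over 8 mice, on the log2(FPKM + 1) scale, for the 9 tested members (rows) and mice (columns), red for above and blue for below. TNFdARE 4 is blue for Ppbp, Srgn, Thbs1, Mmrn1, F13a1 and Selp but red for Pf4, and Tgfb1 is red in TNFdARE 1.

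The genes whose levels followed the chemokines most closely differed between Pf4 and Ppbp. Of 318 non-member genes with a mean of at least 5 FPKM and a value in every mouse, those with the highest Pearson r with Pf4 over the 8 mice on the log2 scale were March2 (0.93), S100a1 (0.88), Ubb (0.85), Myl9 (0.84) and Hbb-bt (0.84). Myl9 encodes a myosin light chain abundant in platelets, and Hbb-bt is an adult beta globin, which ran from 22.2 to 106 FPKM in controls and from 53.6 to 590 FPKM in TNFdARE mice. For Ppbp they were B2m (0.87), Lsm12 (0.87), Ap3m1 (0.87), Prkar2b (0.84) and Gm28989 (0.82). B2m is the light chain of MHC class I, and Ap3m1 is a subunit of the AP-3 complex, which sorts cargo to platelet dense granules. These are descriptions over 8 libraries that share their depth and scaling, and the genotype difference is part of them. Each list is the 5 highest of 318, and the r that such a choice alone would give was not computed.

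Other alpha-granule cargo was examined as a list of 69 genes, 28 of which were above 0 in any mouse and 11 of which reached a mean of 1 FPKM. None of the 11 had an unadjusted limma p under 0.05 (1.76% of all tested genes were higher and 2.74% lower at that p). Estimates were higher for 4 and lower for 7 in TNFdARE, with a median of -0.22. Vwf encodes the adhesive ligand of the GPIb complex. It was at 200, 45, 51.8 and 40.0 FPKM in controls and 33.0, 27.2, 37.7 and 47.4 FPKM in TNFdARE mice. Control 1 was far above the rest. The Vwf difference was -0.87 (SE 0.55, limma adjusted p = 0.86), and without control 1 it was -0.34. Ecm1, an extracellular matrix protein, differed by 0.03 (SE 0.80), and Treml1, a granule membrane receptor, by -0.59 (SE 1.03). TNFdARE 1 was the lowest mouse for both, with Ecm1 at 3.96 FPKM and Treml1 at 0, and without it they differed by 0.95 and 0.71. F5, which encodes coagulation factor V, differed by -0.08 (SE 0.73), and Pecam1, an adhesion receptor, by -0.40 (SE 0.84). TNFdARE 4 was the lowest mouse for both, with F5 at 2.46 FPKM and Pecam1 at 0, and without it they differed by 0.65 and 0.48.

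Among genes of granule biogenesis and release, 21 of 36 listed were above 0 in any mouse and 8 were tested. Of these, 1 passed the unadjusted threshold of 0.05 in limma and was lower, Snap23, a membrane-fusion SNARE that platelets use for granule release (-1.70, SE 0.77, limma adjusted p = 0.86), where 2.74% of all tested genes were lower at that threshold. Snap23 was at 12.2, 5.40, 22.2 and 9.79 FPKM in controls and at 0, 6.72, 6.83 and 2.14 FPKM in TNFdARE mice, so control 2 lay below TNFdARE 2 and 3 and the groups overlapped. Its lowest values were in TNFdARE 1 and 4, the libraries with the fewest genes above 0 and the highest erythroid sums. Without both the difference was -0.63, which did not pass the unadjusted threshold. Nor did it pass without TNFdARE 1 (-1.07), TNFdARE 4 (-1.62), control 1 (-1.66), control 3 (-1.39) or control 4 (-1.75). The list had a median of -0.28. Nfe2 and Gata1, both transcription factors, differed by 0.26 (SE 0.65) and 0.44 (SE 1.02). Gata1 was at 33.0 FPKM in TNFdARE 4 and differed by -0.48 without it, and Nfe2 was at 55.4 FPKM in TNFdARE 1 and differed by -0.24 without it. Those libraries had the highest erythroid sums, and the part of erythroid RNA in these values was not tested. Stx11, a SNARE of platelet secretion, differed by -0.11 (SE 0.56), and Rab11a, a small GTPase of recycling endosomes, by -0.45 (SE 0.79), and both turned without TNFdARE 1, to 0.33 and 0.14.

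Of the listed receptors and partners of the cargo, 12 of 33 were above 0 in any mouse, beside 6566 of all 43548 genes. The comparison covered 4 of them, none with an unadjusted limma p under 0.05, where 4.5% of all tested genes had one. Itga2b and Itgb3, which form the fibrinogen receptor, differed by -0.39 (SE 0.43) and -0.40 (SE 0.55), and by -0.0047 and 0.18 without TNFdARE 1 and 4. Cd44, a receptor for hyaluronan and for serglycin, differed by 0.87 (SE 0.74), or 0.42 without control 1 and 0.49 without TNFdARE 1. Cd47, a receptor of thrombospondin-1, differed by 0.28 (SE 0.70), or -0.015 without TNFdARE 3. The median of the 4 was -0.05.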

How the data were processed

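RNA from washed platelets was extracted with TRIzol, treated with DNase and sequenced by the authors as 150 bp reads. For each mouse and gene, a single normalized value was deposited, read here as FPKM. No source states the unit for these files outright. A passage on the spatial assay mentions CPM with reference to the bulk libraries, but the submitters' processing notes name Cufflinks and mm10, and the columns sum to 46047 to 99470, where CPM would give the same total in each. Read depth is unknown: low values gave no step that could be read as 1 fragment. The methods refer to earlier work for the analysis and cite the articles on GSNAP, an aligner, and on Cufflinks. Their versions and settings, the annotation, strand and the treatment of reads shared by genes are not given in the sources used here.

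The 4 TNFdARE and 4 control mice were compared on log2(FPKM + 1) for genes whose mean FPKM reached 1, by limma (version 3.58.1, R 4.3.3, trend, Benjamini-Hochberg over 1534 genes), and members and ratios also with a two-sided exact permutation test (scipy 1.17.1). The model was tested on simulated data, where 64% of 200 changed genes were recovered with 4 false calls. The alternatives were other pseudocounts, filters and normalizations, other limma settings, a sex term, a block on the replicate number and leaving out each mouse. Controls were littermates, but which mice shared a litter is not given, so litter could not enter the model and p-values measure the spread between these mice.

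The members and lists were chosen with earlier results of these data known. Named genes were the 10 members, the 5 genes most like each of the 2 most abundant members, and in each list the 5 of highest mean FPKM and any with an unadjusted p under 0.05. Gm16548, Gm16587 and genes overlapping Thbs1 or F13a1 were named after their values were seen. Transcripts were compared with BLAST 2.17.0 on GENCODE M21, which held 42384 of the 43548 identifiers. The table lists March2 in a form altered to a date, and it was identified by its Ensembl identifier. Figures were drawn with matplotlib 3.10.9.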

Additional observations from a re-analysis of the deposited data

Results flagged for a closer look

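In 3 of the 24 groups of 4 mice examined, 1 mouse stood apart from the others by more of the group's range than Dixon's 95% critical value, where chance alone gives about 1.2. Pf4 in control 3, at 472 FPKM, was separated from the next control by 0.900 of the control range. Ppbp in control 4, at 408 FPKM, was separated by 0.910 of the range. Tgfb1 in TNFdARE 1, at 96.3 FPKM, was separated by 0.880 of the range. Sparc in TNFdARE 3 also met the criterion but was left out of this count, because with the other 3 TNFdARE libraries listed at 0 its value is 1 at any level.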

How the results depend on the processing

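Of 20 alternatives, each left 0 genes with an adjusted p under 0.05 (smallest adjusted p 0.15 to 0.91). The count of genes with an unadjusted p under 0.05, 69, became 36 when genes had to average 5 FPKM, 111 with sample weights, 46 to 76 when each mouse was left out, and 64 with the replicate number as a block. Its split of 27 higher and 42 lower became 34 and 25 with quantile normalization, 74 and 37 with sample weights, 35 and 28 without TNFdARE 1, 26 and 21 without TNFdARE 4 and 40 and 11 without TNFdARE 1 and 4. The median of all tested genes, -0.30, ran from -0.44 to 0.018 and was -0.060 with quantile normalization.

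Pf4 ran from 0.39 to 0.81 when each mouse was left out, and passed an unadjusted p of 0.05 only without control 3. Ppbp ran from -0.93 to -0.44, and passed with sample weights (-0.88, limma adjusted p = 0.39), without TNFdARE 1 (-0.93) and without TNFdARE 1 and 4 (-0.69), the last chosen after seeing the data. Clu kept its direction in all 20 alternatives (-0.37 to -0.013), which include those that cannot move an estimate. Srgn turned to 0.14 with sample weights and 0.17 without TNFdARE 1 and 4, and ran from -0.33 to 0.33 when each mouse was left out, being higher without control 3 (0.095) and without TNFdARE 4 (0.33). Tgfb1 turned to -0.061 with sample weights and -0.22 without TNFdARE 1 and 4, and ran from -0.099 to 0.61 when each mouse was left out. Thbs1 turned to 0.046 and 0.20 under the same settings and ran from -0.52 to 0.017. Mmrn1 turned to 0.057 and F13a1 to 0.058 with quantile normalization, and they ran from -0.62 to 0.13 and from -0.67 to 0.16 when each mouse was left out. Selp turned to 0.11 without TNFdARE 1 and 4, ran from -1.64 to -0.73 when each mouse was left out, and was -2.62 and -0.46 at pseudocounts of 0.1 and 5, -0.64 with quantile normalization and -0.043 with sample weights. The cause of these turns was not tested. The Ppbp to Pf4 difference stayed between -1.52 and -0.90 in 11 alternatives, with exact permutation p from 0.057 (without control 3) to 0.27 (without TNFdARE 1 and 4). The smallest p possible is 0.057 for 4 against 3 mice and 0.13 for 4 against 2, so no ratio could pass 0.05 with a mouse left out. In these alternatives Srgn to Pf4 ran from -0.80 to -0.13 and Thbs1 to Pf4 from -1.33 to -0.10. Snap23 ran from -2.62 to -0.63 over all 20 alternatives and passed the unadjusted threshold in 8 of them.

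Same-numbered mice did not deviate together (correlations 0.060, -0.062, 0.024 and -0.067) and differed in sex for numbers 1 and 2, so the numbers were not taken as pairs. The submitters' library names share a number between control 1 and TNFdARE 1 and between control 4 and TNFdARE 3. What that number means is not given. The correlations of these mice were 0.060 and 0.042, and no block on library names was fitted. With the replicate block the estimates could not move, since each number occurs once in each group, and limma gave an unadjusted p of 0.23 for Pf4 and 0.15 for Ppbp. Selp had no value when genes had to average 5 FPKM, and Sparc entered only the comparison without a filter (0.070, limma adjusted p = 0.61). Unknown depth limits all values near 0.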
